A study of Oryctolagus cuniculus with 24 samples.

Results

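Secretory proteins enter the endoplasmic reticulum (ER) through a translocon and leave it in coated vesicles for the Golgi, and the genes of that route were read here in rabbit corneal keratocytes under 3 culture conditions. The genes were chosen by name. They cover the signal recognition particle (SRP), the SEC61 translocon with SEC62, SEC63 and the SSR subunits, the SEC11 signal peptidases, the COPII and COPI coats, MIA3, the SEC22 proteins, the TMED cargo receptors, the TRAPP tethers and the CREB3L transcription factors. The names matched 65 of the 23428 genes in the count table, and 63 of those 65 passed the filter on low counts. CREB3L4 and TRAPPC6A did not pass it.

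Each condition has 8 libraries of primary keratocytes, the collagen-making cells of the corneal stroma, at first passage on collagen-coated glass over 6 days. In the TGF-β1 condition, 5 ng/mL TGF-β1 was added to serum-free medium from day 1. In the FBS condition, cells had serum-free medium until day 3 and then DMEM with 10% fetal bovine serum, so the base medium and the days of exposure are not matched to those of TGF-β1. The serum-free condition kept the defined serum-free medium throughout. The labels do not say whether the libraries of a condition came from separate animals or cultures, so the p-values measure only the spread between these libraries, which may be technical.

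SRP binds the signal sequence of a growing protein and brings the ribosome to the SEC61 channel, where signal peptidase removes that sequence. The COPII coat (SAR1, SEC23, SEC24, SEC13 and SEC31) then packs cargo into carriers at exit sites, p24 proteins of the TMED family select part of that cargo, TRAPP complexes tether the carriers, and the COPI coat returns escaped material. Procollagen is too large for an ordinary COPII vesicle, and MIA3, also called TANGO1, helps load it in mammalian cells. Keratocytes secrete the fibrillar collagen and the keratan sulfate proteoglycans of the transparent stroma.

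The libraries held 15410285 to 20911192 counted reads with TGF-β1, 15659561 to 22528261 with FBS and 17151397 to 21540864 in serum-free medium. Levels below are CPM (counts scaled to a common library size), with sizes adjusted by the trimmed mean of M-values (TMM). Summed keratocyte markers (KERA, LUM, ALDH1A1, CD34 and OGN) ranged over 6798 to 12480 CPM with TGF-β1 and 896 to 1975 CPM with FBS, against 39930 to 67210 CPM in serum-free medium. Myofibroblast markers (ACTA2, TAGLN and POSTN) summed to 2069 to 4407 CPM with TGF-β1 and 462 to 1132 CPM with FBS, against 10.7 to 46.0 CPM in serum-free medium. ACTA2 alone was higher with FBS (median 482 CPM) than with TGF-β1 (median 202 CPM), although the labels name these conditions fibroblast and myofibroblast. The 5 corneal epithelial markers in the table were at or near 0, with a sum of at most 0.764 CPM in any library. Vascular markers summed to 52.1 to 114 CPM with TGF-β1, 13.8 to 19.0 CPM with FBS and 246 to 368 CPM in serum-free medium, nearly all of it KDR, while PECAM1 and TEK stayed under 1.31 CPM. Leukocyte markers summed to 5.94 to 9.56 CPM with TGF-β1, 11.9 to 26.0 CPM with FBS and 3.35 to 6.08 CPM in serum-free medium. Schwann cell and melanocyte markers summed to at most 17.7 CPM, in serum-free medium. The part of these cells in the changes below was not tested, and in bulk RNA fewer cells of a type and less RNA per cell cannot be told apart.

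With TGF-β1, 21 of the 63 tested secretory genes rose and 8 fell against serum-free medium. Over all 13308 genes tested, 31.2% rose and 33.1% fell in that comparison. With FBS, 26 rose and 24 fell, beside 39.5% and 40.5% of all genes. The shares that rose with TGF-β1 and that rose or fell with FBS are near those of all genes and are no result about these genes as a whole. The 8 that fell with TGF-β1 are fewer than the background share would give, a difference that was not tested and that library numbers 5 to 8 alone did not show (17 fell). The 2 comparisons share the 8 serum-free libraries, and their values are given side by side below. A gene is called at an adjusted p under 0.05 in edgeR's quasi-likelihood test over all genes, and ± after a log2 fold change is its standard error. The median log2 fold change of the 63 genes was 0.12 with TGF-β1 and 0.09 with FBS, beside -0.03 and -0.04 for all genes.

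By step of the route, with FBS all 5 SRP genes and both SEC11 genes rose, and 6 of 9 TMED genes rose and 1 fell. Of the COPII genes 7 of 12 fell and 4 rose, and of the COPI genes 4 of 7 fell and 1 rose. The median COPI change with FBS was -0.47 in library numbers 5 to 8 and -0.06 in numbers 9 to 12. Numbers 9 to 12 alone did not call COPA, COPG1, SEC23A and SEC24C. They called ARCN1 (0.31, adjusted p = 0.00516), COPB2 (0.29, 0.000507) and SEC13 (0.35, 0.033) higher. Over all genes, 39.5% rose and 40.5% fell with FBS, and 31.2% rose and 33.1% fell with TGF-β1. No difference of a step from these shares was tested. When libraries were scaled by total count alone, the COPII genes with FBS split into 5 higher and 5 lower and the COPI genes into 3 higher and 1 lower, and the SRP, SEC11 and TMED directions stayed. With TGF-β1, 3 of 5 SRP genes, both SEC11 genes and 6 of 9 TMED genes rose, and none of these 3 groups had a gene called lower. Of the 12 COPII genes 3 fell and 1 rose, and none of the 7 COPI genes was called. Library numbers 5 to 8 alone also called ARCN1, COPA, COPB1, COPG1, SAR1A, SEC24C, SEC24D, SEC31A and SRP68 lower with TGF-β1 (adjusted p from 1.3e-05 to 0.0249). Numbers 9 to 12 alone instead called COPB2 (0.24), SEC23B (0.18) and SEC23IP (0.29) higher. Total-count scaling gave 3 COPI and 7 COPII genes called lower with TGF-β1 and called 1 SRP gene lower as well. Against serum-free medium, it put the median log2 fold change of all genes at -0.17 with TGF-β1 and 0.21 with FBS. With TMM these medians were -0.03 and -0.04. Rises with TGF-β1 that lost their call under this scaling were those of TMED3 (0.46, adjusted p = 0.0836), SEC11C (0.29, 0.0696), SRP14 (0.25, 0.0832), TRAPPC10 (0.18, 0.0666), TRAPPC6B (0.11, 0.34), SSR4 and TRAPPC12. Falls with FBS that lost it were those of SEC23A (-0.16, adjusted p = 0.156), TRAPPC6B (-0.08, 0.474), TRAPPC13 (-0.02, 0.827), SEC24A, COPA, COPB1 and COPG1. The values of the genes without one here stand beside their results.

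**Figure D1:**
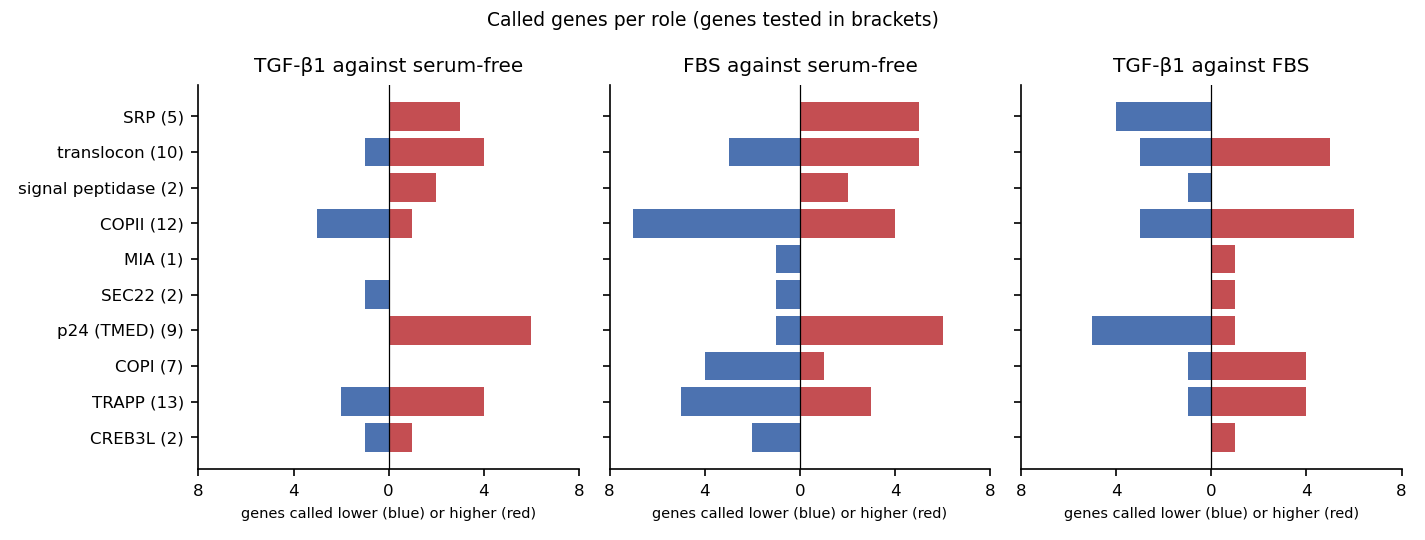
Number of genes called higher (red, to the right) or lower (blue, to the left) per role in each of the 3 comparisons, with the number of genes tested in brackets. With FBS against serum-free medium, all 5 SRP genes and both signal peptidase genes are on the higher side, and 7 COPII genes are on the lower side.

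Among the SRP genes, SRP9 and SRP19 moved most. SRP9 and SRP14 form the dimer at one end of the particle, and SRP19 helps assemble SRP54, the subunit that binds signal sequences, onto the particle's RNA. SRP9 had 62.1 to 81.1 CPM (median 69.9) with TGF-β1, 107 to 119 CPM (median 112) with FBS and 39.0 to 56.1 CPM (median 47.8) in serum-free medium. The 3 conditions did not overlap, and every FBS library lay above every TGF-β1 library. SRP9 rose with TGF-β1 (log2 fold change 0.55 ± 0.07, adjusted p = 3.7e-07) and with FBS (1.23 ± 0.07, adjusted p = 3.49e-14). SRP19 had 35.6 to 49.6 CPM (median 39.7) with TGF-β1, 59.2 to 84.9 CPM (median 68.8) with FBS and 18.2 to 34.0 CPM (median 27.5) in serum-free medium. These ranges were also separate, with a log2 fold change of 0.58 ± 0.11, adjusted p = 5.94e-05 for TGF-β1 and 1.35 ± 0.11, adjusted p = 2.42e-11 for FBS.

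The other 3 SRP genes changed less. SRP14 had the highest level per length of the class, at 108 ± 14.7 FPKM with TGF-β1, 109 ± 30.1 FPKM with FBS and 82.5 ± 9.73 FPKM in serum-free medium (mean ± SD, n = 8 each). It rose by 0.39 (log2) with TGF-β1 and 0.41 with FBS, with overlapping ranges, and the FBS change was lost without FBS replicates 5 and 6 (0.19, adjusted p = 0.0586). SRP68 and SRP72, a dimer at the other end of the particle, rose less with FBS (0.27 ± 0.06, adjusted p = 0.000495 and 0.32 ± 0.07, adjusted p = 0.00018). With TGF-β1, SRP72 gave 0.04 ± 0.07, adjusted p = 0.605 and SRP68 -0.12 ± 0.06, adjusted p = 0.115, and SRP68 was called lower when replicate numbers were fitted as a block (adjusted p = 0.0458).

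At the translocon the subunits of one complex parted. The SSR proteins form the translocon-associated complex, and with FBS SSR1 and SSR2 rose, SSR3 fell and SSR4 was not called. SSR1 had 216 to 280.5 CPM (median 223) with TGF-β1, 319.9 to 420.1 CPM (median 403) with FBS and 131 to 209 CPM (median 167) in serum-free medium. All 3 ranges were separate, and SSR1 rose by 0.45 ± 0.09, adjusted p = 0.000172 with TGF-β1 and by 1.21 ± 0.10, adjusted p = 9.57e-12 with FBS. SSR3 had 366 to 434 CPM (median 384) with TGF-β1, 306 to 384 CPM (median 323) with FBS and 433 to 578 CPM (median 487) in serum-free medium. SSR3 fell with FBS in every library (-0.57 ± 0.07, adjusted p = 3.43e-08) and fell with TGF-β1 with a small overlap of ranges (-0.33 ± 0.07, adjusted p = 0.000191). SSR2 rose in both conditions (0.70 ± 0.14 with TGF-β1 and 0.51 ± 0.14 with FBS), with overlapping ranges. SSR4, the most abundant gene of the class per length with TGF-β1 and in serum-free medium, averaged 431 ± 81.0 FPKM with TGF-β1, 287 ± 78.9 FPKM with FBS and 325 ± 52.8 FPKM in serum-free medium (SD, n = 8 each), and it rose with TGF-β1 (0.40 ± 0.15, adjusted p = 0.0181), a call lost with total-count scaling (0.26, adjusted p = 0.122). With FBS it gave -0.18 ± 0.15, adjusted p = 0.26, below SSR1 in level (349.6 FPKM), and it was called lower without FBS replicates 5 and 6 (-0.39, adjusted p = 0.00504).

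The 3 subunits of the SEC61 channel rose together with FBS. SEC61A1, the pore, had 473 to 518 CPM (median 487) with FBS, against 351 to 409 CPM (median 375) in serum-free medium, with no overlap (0.38 ± 0.06, adjusted p = 1.39e-06). SEC61G, a small subunit, rose in both conditions (0.67 ± 0.14, adjusted p = 0.000148 with TGF-β1, 0.84 ± 0.14, adjusted p = 4.71e-06 with FBS). SEC61B, the other small subunit, rose with FBS (0.67 ± 0.14, adjusted p = 0.000136) and gave 0.27 ± 0.14, adjusted p = 0.103 with TGF-β1 (adjusted p = 0.0413 with the replicate block). SEC61A2, a second pore gene, was lower with FBS (-0.70 ± 0.14, adjusted p = 5.82e-05) and gave -0.27 ± 0.14, adjusted p = 0.089 with TGF-β1, called with the block (adjusted p = 0.00162). It made up 4.70% ± 1.28 of the summed FPKM of the pore genes with TGF-β1, 2.91% ± 0.597 with FBS and 5.96% ± 0.616 in serum-free medium.

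SEC62 and SEC63 assist the channel with substrates that SRP does not deliver. SEC62 had 215 to 259.9 CPM (median 251) with TGF-β1, 118 to 140.2 CPM (median 128) with FBS and 203 to 256 CPM (median 223) in serum-free medium. SEC62 with FBS lay below all other libraries (-0.84 ± 0.06, adjusted p = 5.04e-12), and the TGF-β1 and serum-free ranges overlapped (0.10 ± 0.06, adjusted p = 0.172). SEC63 was called in neither condition (0.12 ± 0.08 with TGF-β1 and -0.06 ± 0.08 with FBS).

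Signal peptidase has a catalytic subunit in alternative forms, SEC11A and SEC11C. SEC11A had 74.5 to 84.5 CPM (median 78.3) with TGF-β1, 96.2 to 149.5 CPM (median 110.5) with FBS and 46.8 to 64.0 CPM (median 55.2) in serum-free medium. The ranges were separate, at 0.50 ± 0.08, adjusted p = 7.92e-06 for TGF-β1 and 1.07 ± 0.08, adjusted p = 5.26e-12 for FBS. SEC11C had 47.7 to 66.0 CPM (median 57.3) with TGF-β1, 37.8 to 80.2 CPM (median 47.9) with FBS and 32.9 to 54.5 CPM (median 41.2) in serum-free medium. SEC11C rose with TGF-β1 (0.43 ± 0.13, adjusted p = 0.00666) and with FBS (0.33 ± 0.13, adjusted p = 0.0272), with overlapping ranges in both. The FBS call was lost when serum-free replicate 1, FBS replicate 5 or FBS replicate 6 was left out (adjusted p from 0.0584 to 0.0833). SEC11C made up 53.0% ± 2.75 of the summed FPKM of this pair with TGF-β1, 41.0% ± 3.17 with FBS and 54.1% ± 3.17 in serum-free medium.

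**Figure D2:**
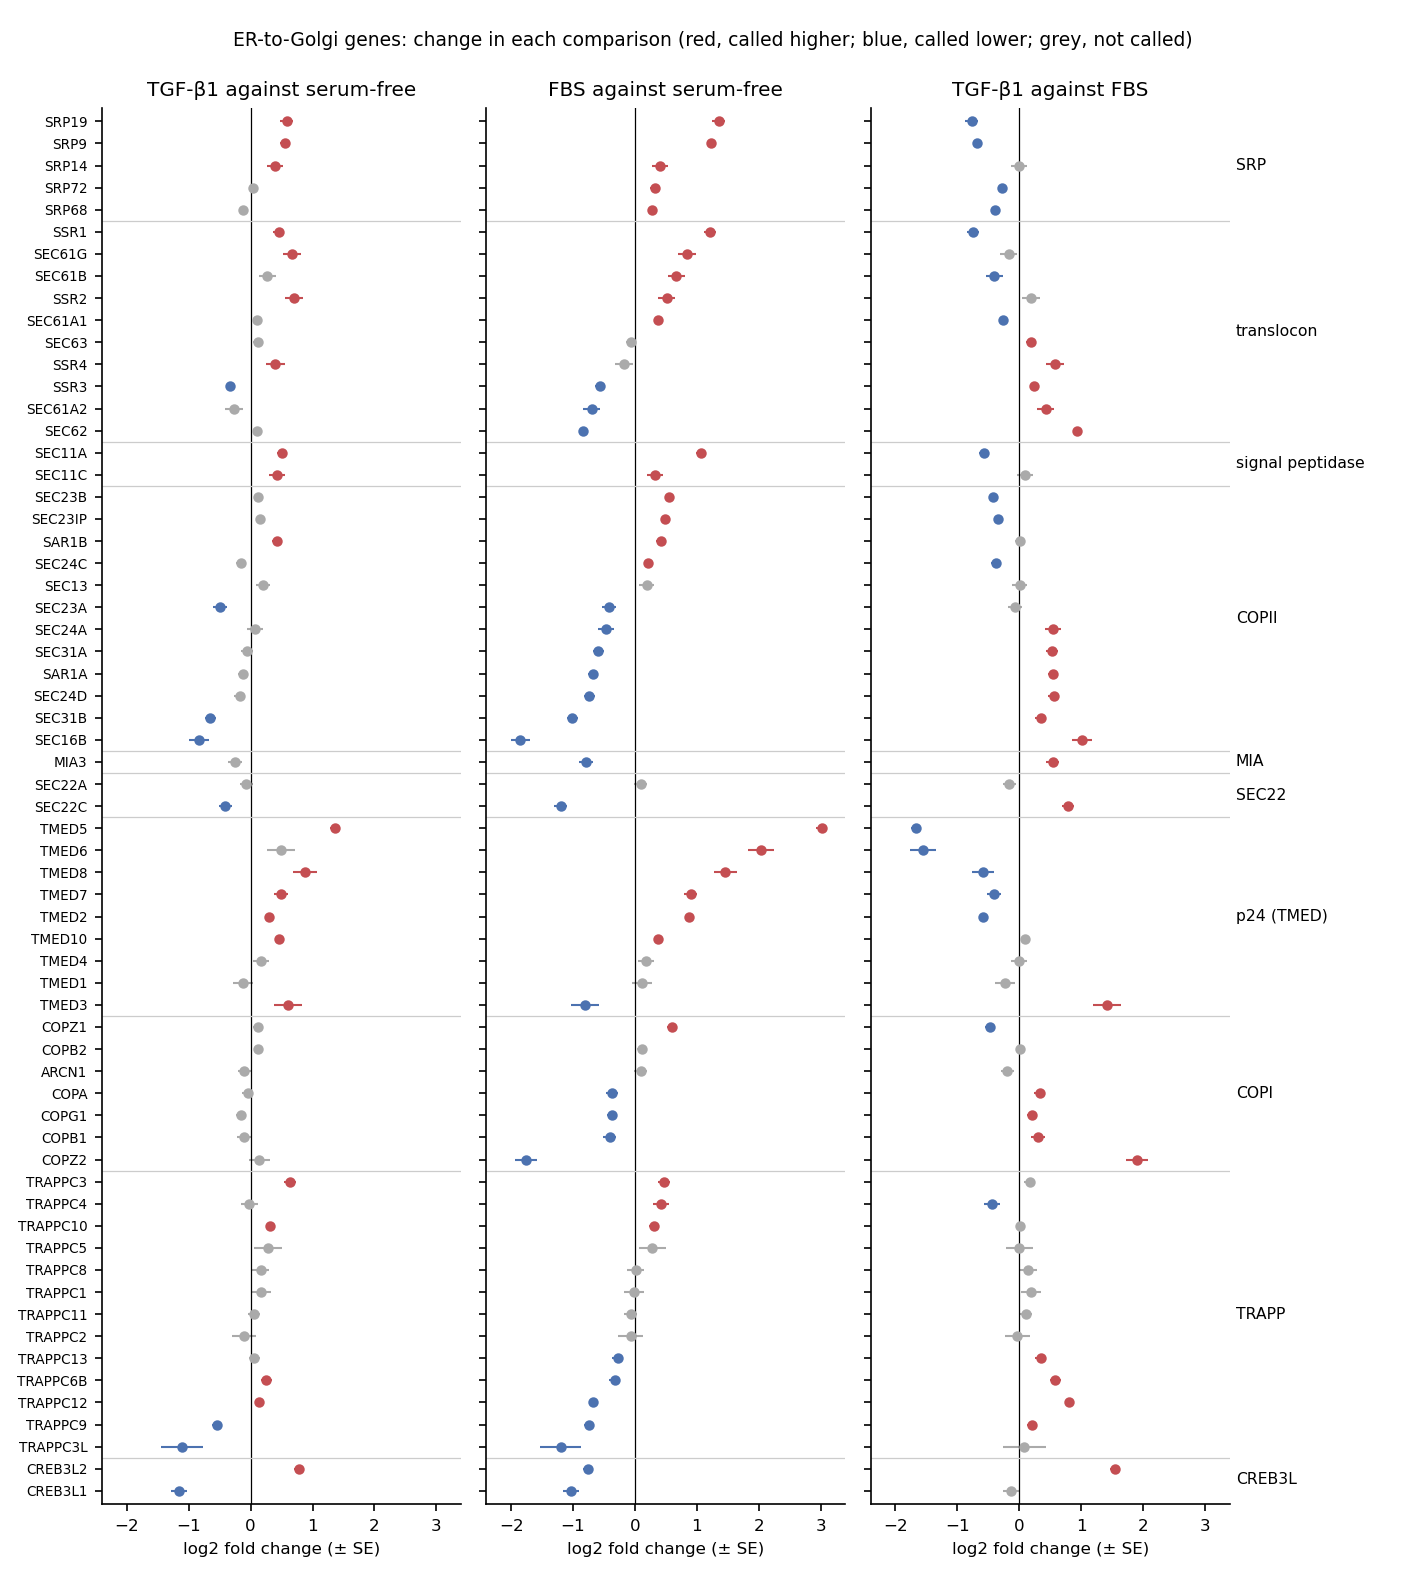
Log2 fold change with its standard error for the 63 tested genes in each of the 3 comparisons, ordered by role and, within a role, by the change with FBS (red, called higher; blue, called lower; grey, not called). TMED5 at 3.02 with FBS, COPZ2 at -1.76 with FBS and CREB3L2 at 0.78 with TGF-β1 and -0.76 with FBS stand out from their neighbours.

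Within the COPII coat, the SAR1 pair and the SEC23 pair moved in opposite directions with FBS, though the SEC23A fall was not called in every setting. SEC24A and SEC24D fell and SEC24C rose, while SEC31A and SEC31B both fell. SAR1 is the GTPase that starts the coat, and SAR1A had 224 to 256 CPM (median 240) with TGF-β1, 153 to 175 CPM (median 162) with FBS and 211 to 311 CPM (median 265) in serum-free medium. SAR1A fell with FBS, with separate ranges (-0.68 ± 0.08, adjusted p = 2.66e-08), and was not called with TGF-β1 (-0.13 ± 0.08, adjusted p = 0.157). SAR1B had 68.5 to 104 CPM (median 80.6) with TGF-β1, 72.5 to 86.8 CPM (median 82.0) with FBS and 51.5 to 70.4 CPM (median 59.0) in serum-free medium. SAR1B rose in both conditions (0.43 ± 0.08, adjusted p = 5.56e-05 with TGF-β1 and 0.42 ± 0.08, adjusted p = 3.8e-05 with FBS). SAR1A, the most abundant COPII gene per length with TGF-β1 and in serum-free medium but not with FBS, where SEC13 was higher (92.4 against 73.1 FPKM), held 81.1% ± 1.92 of the summed FPKM of the pair with TGF-β1, 74.6% ± 1.59 with FBS and 86.2% ± 1.04 in serum-free medium (SD, n = 8 each).

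SEC23 forms the inner coat with SEC24 and activates the SAR1 GTPase. SEC23A had 127 to 169 CPM (median 146) with TGF-β1, 125 to 172 CPM (median 159) with FBS and 158 to 266 CPM (median 206) in serum-free medium. SEC23A was lower in both conditions (-0.50 ± 0.11, adjusted p = 0.000337 with TGF-β1 and -0.42 ± 0.11, adjusted p = 0.00108 with FBS), with overlapping ranges, and neither fall was called among library numbers 9 to 12 alone (adjusted p = 0.228 and 0.12). SEC23B had 53.5 to 63.4 CPM (median 55.0) with TGF-β1, 71.2 to 79.0 CPM (median 75.8) with FBS and 44.6 to 62.1 CPM (median 50.7) in serum-free medium. SEC23B rose with FBS in every library (0.55 ± 0.06, adjusted p = 7.4e-09) and gave 0.12 ± 0.06, adjusted p = 0.0966 with TGF-β1. SEC23A held 76.0% ± 1.71 of the pair's FPKM with TGF-β1, 71.2% ± 2.16 with FBS and 82.7% ± 2.41 in serum-free medium. SEC23IP, which binds SEC23 at exit sites, rose with FBS (0.49 ± 0.07, adjusted p = 7.08e-07) and was called with TGF-β1 only with the block (0.15 ± 0.07, adjusted p = 0.071; block adjusted p = 0.034).

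SEC24 proteins bind the cargo. SEC24D had 205 to 258 CPM (median 221) with TGF-β1, 136 to 182 CPM (median 148) with FBS and 214 to 309.6 CPM (median 251) in serum-free medium. SEC24D was lower with FBS with no overlap (-0.74 ± 0.09, adjusted p = 2.19e-08), and SEC24A was lower with overlapping ranges (-0.47 ± 0.13, adjusted p = 0.00224), a call lost with total-count scaling (-0.20, adjusted p = 0.153). SEC24C rose with FBS (0.21 ± 0.07, adjusted p = 0.00866), while with TGF-β1 it gave -0.16 ± 0.07, adjusted p = 0.0524, called with the block (adjusted p = 0.0344). TGF-β1 gave -0.18 ± 0.09, adjusted p = 0.0773 for SEC24D and 0.07 ± 0.13, adjusted p = 0.662 for SEC24A. SEC24D held 59.1% ± 1.32 of the summed FPKM of these 3 genes with TGF-β1, 48.9% ± 3.08 with FBS and 61.0% ± 2.15 in serum-free medium.

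SEC16B at exit sites and SEC31B of the outer coat gave the largest COPII falls in both conditions. SEC31A had 267 to 334 CPM (median 302) with TGF-β1, 159 to 224 CPM (median 216) with FBS and 249.7 to 369.8 CPM (median 309.9) in serum-free medium. SEC31A fell with FBS with no overlap (-0.59 ± 0.09, adjusted p = 1.53e-06) and gave -0.06 ± 0.09, adjusted p = 0.593 with TGF-β1. SEC31B, its less abundant paralogue, had 16.6 to 24.3 CPM (median 21.9) with TGF-β1 and 14.4 to 23.4 CPM (median 16.2) with FBS, against 30.9 to 36.2 CPM (median 34.2) in serum-free medium, with both treated ranges below the serum-free one (-0.65 ± 0.09, adjusted p = 9.01e-07 and -1.01 ± 0.09, adjusted p = 1.88e-10). SEC16B, a scaffold that marks exit sites, had 7.00 to 10.8 CPM (median 9.09) with TGF-β1 and 2.81 to 6.07 CPM (median 4.42) with FBS, against 11.8 to 19.3 CPM (median 15.9) in serum-free medium. Its 3 ranges were separate (-0.83 ± 0.16, adjusted p = 4.57e-05 with TGF-β1 and -1.85 ± 0.16, adjusted p = 5.25e-11 with FBS), at a low level of 3.85 ± 0.675 FPKM in serum-free medium. SEC13, which cages the outer coat with SEC31, was called in neither condition (0.20 ± 0.12 and 0.19 ± 0.12).

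**Figure D3:**
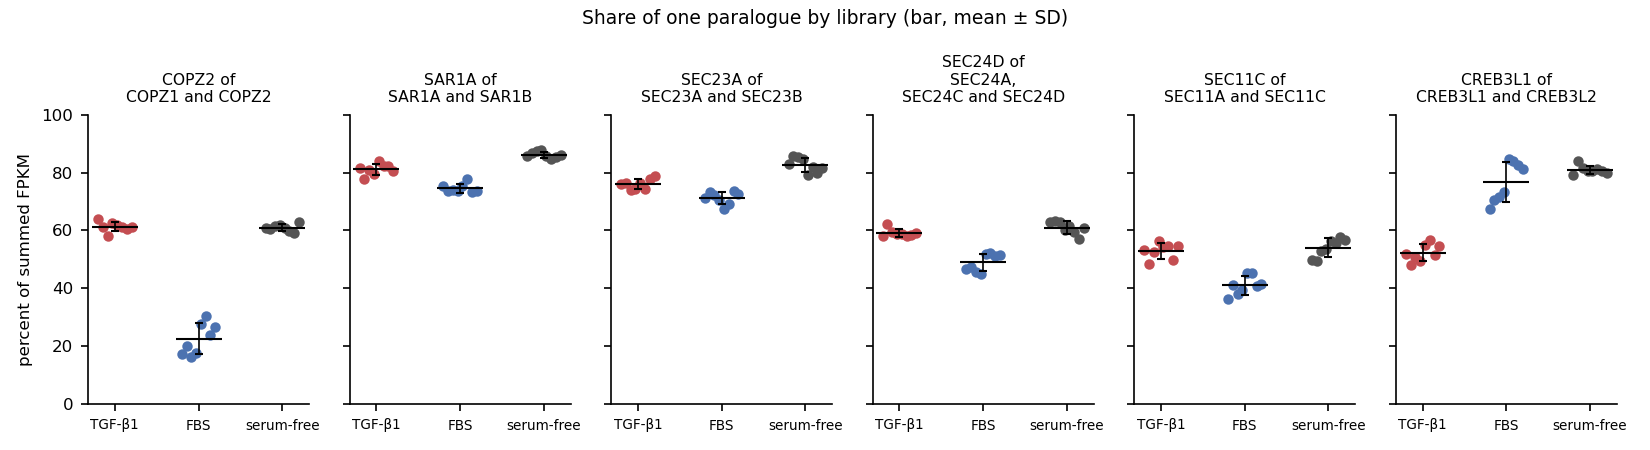
Share of 1 paralogue in the summed FPKM of its set, in percent, for each library (points), with the mean and SD of 8 libraries per condition (bars). COPZ2 held 22.5% with FBS, against 61.3% with TGF-β1 and 60.9% in serum-free medium, and CREB3L1 held 52.2% with TGF-β1, against 76.9% with FBS and 81.0% in serum-free medium.

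MIA3 fell with FBS. MIA3 had 114 to 129 CPM (median 119.7) with TGF-β1, 51.6 to 100.5 CPM (median 91.4) with FBS and 115 to 160.3 CPM (median 148) in serum-free medium. Every FBS library was below every serum-free and TGF-β1 library (-0.79 ± 0.11, adjusted p = 6.13e-07), and the lowest were FBS replicates 5 and 6. With TGF-β1 the change was smaller and not called (-0.25 ± 0.11, adjusted p = 0.0571), and it was called lower with the replicate block (adjusted p = 0.019). The collagen genes COL1A1 and COL1A2 also fell with FBS and were not called with TGF-β1. COL1A1 had a median of 71010 CPM with TGF-β1, 5572 CPM with FBS and 65070 CPM in serum-free medium, with log2 fold changes of 0.14 ± 0.14, adjusted p = 0.412 for TGF-β1 and -3.44 ± 0.16, adjusted p = 7.61e-17 for FBS. COL1A2 changed by -0.33 ± 0.17, adjusted p = 0.0878 with TGF-β1 and -4.12 ± 0.19, adjusted p = 1.35e-16 with FBS. The secretory genes made up 0.731% ± 0.0286 of all counted reads with TGF-β1, 0.928% ± 0.0123 with FBS and 0.749% ± 0.0279 in serum-free medium (SD, n = 8 each). This share is on raw totals, in which the 2 collagen genes weigh heavily.

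SEC22 proteins are SNAREs, or relatives of SNAREs, of the ER and early Golgi. SEC22C had 18.0 to 30.0 CPM (median 22.7) with TGF-β1, 11.5 to 14.5 CPM (median 13.4) with FBS and 23.8 to 34.5 CPM (median 32.0) in serum-free medium. SEC22C fell with FBS with no overlap (-1.20 ± 0.10, adjusted p = 5.69e-11) and less with TGF-β1 (-0.41 ± 0.10, adjusted p = 0.0011). SEC22A was called in neither condition (-0.07 ± 0.10 and 0.09 ± 0.10), at 4.57 ± 0.496 FPKM in serum-free medium.

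The TMED genes gave the largest rise. p24 proteins cycle between ER and Golgi in hetero-oligomers and carry cargo such as lipid-anchored proteins. TMED5 had 49.9 to 60.5 CPM (median 53.5) with TGF-β1, 139 to 195 CPM (median 176) with FBS and 18.6 to 26.3 CPM (median 20.9) in serum-free medium. The 3 ranges were far apart, with FBS above TGF-β1 and TGF-β1 above serum-free medium. TMED5 rose by 1.36 ± 0.08, adjusted p = 1.29e-13 with TGF-β1 and by 3.02 ± 0.09, adjusted p = 9.33e-21 with FBS. In the table it lies on chromosome 13 at 71366667 to 71390971, plus strand, in coordinates of an unstated genome build.

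TMED2 and TMED10 are p24 proteins that bind each other. TMED2 had 386 to 439 CPM (median 396) with TGF-β1, 576 to 636 CPM (median 598) with FBS and 298 to 367 CPM (median 331) in serum-free medium. Its ranges were separate (0.29 ± 0.06, adjusted p = 0.000127 with TGF-β1 and 0.87 ± 0.06, adjusted p = 4.68e-13 with FBS). TMED10 had 294 to 352 CPM (median 329) with TGF-β1, 270.1 to 339 CPM (median 312) with FBS and 224 to 252 CPM (median 238) in serum-free medium. TMED10 rose in both conditions with both treated ranges above serum-free medium (0.45 ± 0.06, adjusted p = 5.68e-07 and 0.37 ± 0.06, adjusted p = 6.78e-06). TMED7 rose by 0.49 ± 0.11 with TGF-β1 and 0.90 ± 0.11 with FBS, and TMED8, which carries the family name, by 0.88 ± 0.19 and 1.46 ± 0.19 at medians of 7.34, 11.5 and 3.38 CPM with TGF-β1, FBS and serum-free medium. TMED6, at low level, had 4.42 to 11.3 CPM (median 7.64) with FBS, against 1.000 to 2.56 CPM (median 1.87) in serum-free medium (2.04 ± 0.21, adjusted p = 2.35e-09), and with TGF-β1 it gave 0.49 ± 0.22, adjusted p = 0.0541, called with the block (adjusted p = 0.0187).

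TMED3 went the other way with FBS. TMED3 had 242 to 531 CPM (median 393) with TGF-β1, 83.8 to 270.2 CPM (median 128) with FBS and 165 to 360.3 CPM (median 243) in serum-free medium. It was the most abundant TMED gene per length with TGF-β1, at 441 ± 127 FPKM, against 289 ± 65.5 FPKM in serum-free medium (SD, n = 8 each). TMED3 rose with TGF-β1 (0.60 ± 0.23, adjusted p = 0.0227) and fell with FBS (-0.81 ± 0.23, adjusted p = 0.00214), with overlapping ranges in both comparisons. Within each condition the libraries numbered 9 to 12 were mostly higher than those numbered 5 to 8, and the log2 fold changes within these sets were 0.44 and 0.72 for TGF-β1 and -1.22 and -0.56 for FBS, in the order of library numbers 5 to 8 and 9 to 12. TMED1 and TMED4 were not called, at -0.12 ± 0.16 and 0.17 ± 0.13 with TGF-β1 and 0.11 ± 0.16 and 0.18 ± 0.13 with FBS. With the block TMED4 was called higher in both (adjusted p = 0.0379 and 0.0172).

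**Figure D4:**
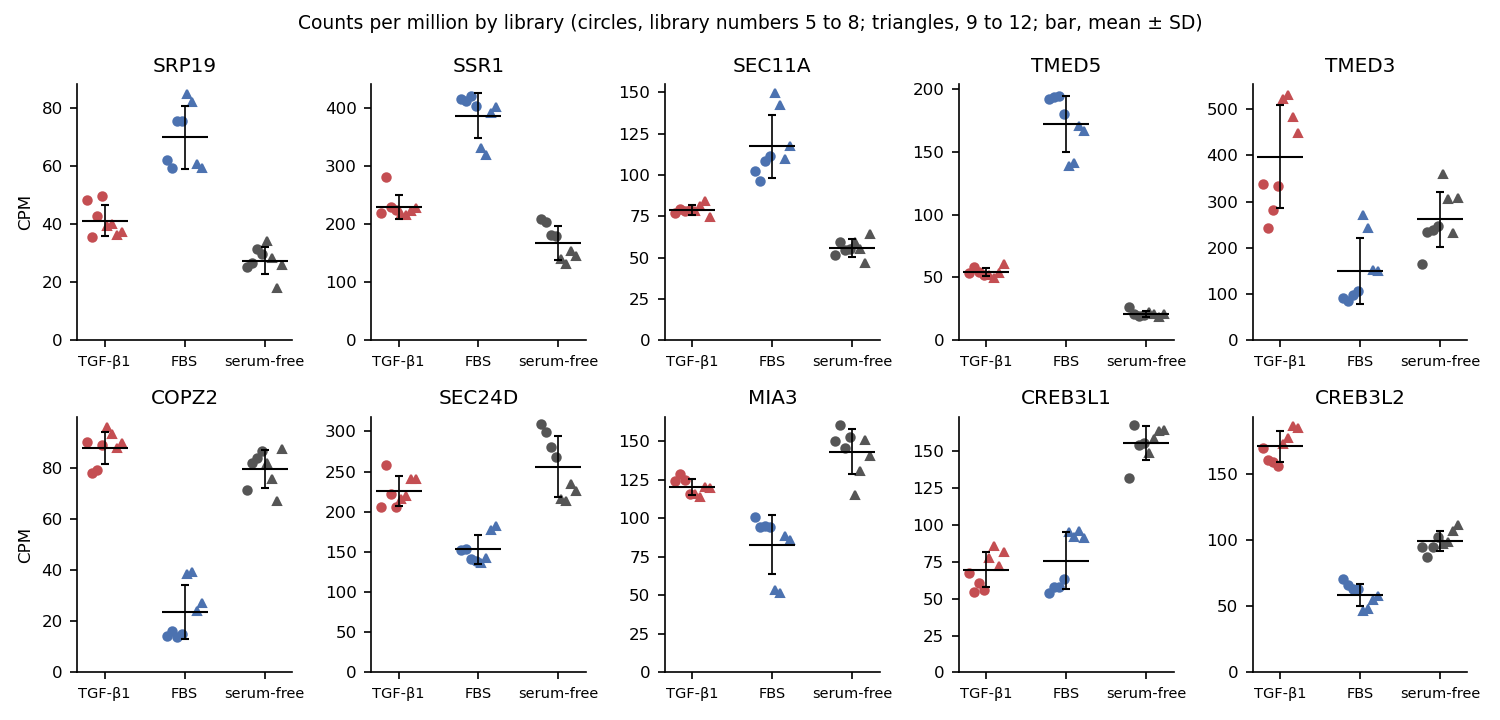
CPM by library for 10 of the genes, in the order TGF-β1, FBS and serum-free medium (circles, library numbers 5 to 8; triangles, 9 to 12; bar, mean ± SD of 8 libraries). The 8 FBS libraries of TMED5 lie between 139 and 195 CPM, above all others, and the FBS libraries of COPZ2 lie between 14.0 and 39.3 CPM, below all others.

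In the main fit, COPI genes were called against serum-free medium only with FBS, with the largest changes at COPZ2 and COPZ1. COPZ1 and COPZ2 encode alternative ζ subunits. COPZ2 had 77.9 to 95.8 CPM (median 89.2) with TGF-β1, 14.0 to 39.3 CPM (median 20.1) with FBS and 66.8 to 87.3 CPM (median 81.9) in serum-free medium. FBS lay below every other library (-1.76 ± 0.18, adjusted p = 1.43e-09), and TGF-β1 and serum-free medium overlapped (0.14 ± 0.17, adjusted p = 0.485). COPZ1 had 104 to 125 CPM (median 120.5) with TGF-β1, 136 to 213 CPM (median 156) with FBS and 97.5 to 114 CPM (median 110.2) in serum-free medium. COPZ1 rose with FBS with no overlap (0.60 ± 0.08, adjusted p = 1.72e-07) and was not called with TGF-β1 (0.12 ± 0.08, adjusted p = 0.192). COPZ2 therefore made up 61.3% ± 1.63 of the summed FPKM of the pair with TGF-β1, 22.5% ± 5.36 with FBS and 60.9% ± 1.22 in serum-free medium (SD, n = 8 each). Among the large subunits, COPA (α), COPB1 (β) and COPG1 (γ) were lower with FBS, at -0.37 ± 0.09, adjusted p = 0.000543, -0.41 ± 0.11, adjusted p = 0.00106 and -0.37 ± 0.08, adjusted p = 0.000142, with overlapping ranges. All 3 lost the call with total-count scaling (adjusted p = 0.234, 0.18 and 0.16), and COPG1 was at -0.06 among library numbers 9 to 12. COPB2 (β′), with a level per length of 87.6 ± 4.62 FPKM with TGF-β1, 86.3 ± 2.52 with FBS and 80.4 ± 11.7 in serum-free medium, and ARCN1 (δ) were not called with FBS (0.11 ± 0.07 and 0.09 ± 0.11). Among library numbers 9 to 12 alone COPB2 and ARCN1 were called higher with FBS. With TGF-β1 the 7 COPI genes lay between -0.16 and 0.14. Numbers 5 to 8 alone called ARCN1, COPA, COPB1 and COPG1 lower with TGF-β1, and numbers 9 to 12 alone called COPB2 higher.

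Of the 13 tested TRAPP genes, 4 rose and 2 fell with TGF-β1, and 3 rose and 5 fell with FBS. Over all genes, 31.2% rose and 33.1% fell with TGF-β1, and 39.5% rose and 40.5% fell with FBS. The TRAPP rises with TGF-β1 and falls with FBS are near these shares, and no difference from them was tested. Total-count scaling gave 1 TRAPP gene higher and 2 lower with TGF-β1, and 4 higher and 3 lower with FBS. TRAPPC3, a core subunit shared by the TRAPP complexes, had 58.0 to 76.1 CPM (median 69.0) with TGF-β1 and 47.7 to 77.4 CPM (median 57.9) with FBS, against 36.8 to 49.9 CPM (median 43.4) in serum-free medium. The TGF-β1 range was separate from serum-free medium (0.64 ± 0.10, adjusted p = 1.65e-06) and the FBS range overlapped it (0.47 ± 0.09, adjusted p = 6.49e-05). TRAPPC9 and TRAPPC10 are the subunits that define the TRAPPII form, and they moved apart. TRAPPC9 had 34.4 to 42.1 CPM (median 37.2) with TGF-β1, 28.9 to 38.0 CPM (median 33.0) with FBS and 51.3 to 59.8 CPM (median 55.1) in serum-free medium. TRAPPC9 fell in both conditions with no overlap (-0.55 ± 0.07, adjusted p = 1.08e-07 and -0.75 ± 0.07, adjusted p = 1.72e-10), and TRAPPC10 rose in both with overlapping ranges (0.32 ± 0.07, adjusted p = 0.000402 and 0.30 ± 0.07, adjusted p = 0.000456).

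TRAPPC12, a subunit of the TRAPPIII form, was lower with FBS in all libraries. TRAPPC12 had 79.3 to 89.5 CPM (median 85.4) with TGF-β1, 46.3 to 50.6 CPM (median 48.4) with FBS and 70.0 to 82.1 CPM (median 78.0) in serum-free medium. The FBS fall was -0.67 ± 0.05, adjusted p = 4.76e-12, and the small rise with TGF-β1 (0.14 ± 0.05, adjusted p = 0.0212) became -0.01 (adjusted p = 0.937) with total-count scaling and 0.0524 in adjusted p without serum-free replicate 3. TRAPPC6B, a core subunit, also rose with TGF-β1 (0.25 ± 0.09, adjusted p = 0.023) and fell with FBS (-0.33 ± 0.09, adjusted p = 0.00219), and the TGF-β1 call was lost without serum-free replicate 4 or 8 (adjusted p from 0.0505 to 0.0542). TRAPPC13 fell with FBS (-0.28 ± 0.09, adjusted p = 0.00695), TRAPPC4 rose with FBS (0.42 ± 0.13, adjusted p = 0.00606), and TRAPPC3L, a relative of TRAPPC3 with medians of 0.679, 0.806 and 1.65 CPM with TGF-β1, FBS and serum-free medium, fell in both (-1.11 ± 0.34, adjusted p = 0.00602 and -1.20 ± 0.33, adjusted p = 0.00202). The other 5 (TRAPPC1, TRAPPC2, TRAPPC5, TRAPPC8 and TRAPPC11) were not called. With the block TRAPPC5 was called higher with TGF-β1 (adjusted p = 0.0197). Per length TRAPPC2 averaged 42.3 ± 7.00 FPKM with TGF-β1, 43.2 ± 19.0 with FBS and 45.5 ± 9.39 in serum-free medium, where it was the highest of the class, while TRAPPC1 was highest with TGF-β1 (44.4 FPKM) and TRAPPC5 with FBS (44.0 FPKM), by less than 1 SD in both.

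CREB3L1 and CREB3L2 are membrane-bound transcription factors of the ER that are cut in the Golgi, and in mice they are known to raise genes of the secretory pathway in bone and cartilage cells. CREB3L1 had 54.8 to 85.9 CPM (median 69.9) with TGF-β1, 53.8 to 95.9 CPM (median 77.2) with FBS and 132 to 168 CPM (median 157) in serum-free medium. Both treated ranges lay below serum-free medium. CREB3L1 fell by 1.16 with TGF-β1 and by 1.04 with FBS on the log2 scale (adjusted p = 1.36e-08 and 4.08e-08). CREB3L2 had 156 to 186 CPM (median 171) with TGF-β1, 46.3 to 70.3 CPM (median 60.0) with FBS and 87.4 to 111 CPM (median 97.6) in serum-free medium. The 3 ranges were separate, with TGF-β1 highest and FBS lowest. CREB3L2 rose with TGF-β1 (0.78 ± 0.08, adjusted p = 2.93e-09) and fell with FBS (-0.76 ± 0.08, adjusted p = 2.37e-09). CREB3L1 made up 52.2% ± 2.98 of the summed FPKM of the pair with TGF-β1, 76.9% ± 6.93 with FBS and 81.0% ± 1.41 in serum-free medium. In the table CREB3L1 lies on chromosome 1 at 185637338 to 185674103 and CREB3L2 on chromosome 7 at 2108811 to 2240892.

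CREB3L4 had at most 0.345 CPM with TGF-β1, 0.983 CPM with FBS and 0.357 CPM in serum-free medium. TRAPPC6A, listed with a gene length of 218 bases, had at most 0.115 CPM with TGF-β1, 0.198 CPM with FBS and 0.393 CPM in serum-free medium. No test was made of either gene.

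Set directly against FBS, TGF-β1 gave 23 secretory genes higher and 18 lower, beside 36.9% and 36.4% of all genes. Total-count scaling turned this to 7 higher and 36 lower. The median log2 fold change of all genes was then -0.39, against 0.01 with TMM. CREB3L2 had 156 to 186 CPM (median 171) with TGF-β1, against 46.3 to 70.3 CPM (median 60.0) with FBS (1.54 ± 0.08, adjusted p = 2.96e-15). COPZ2 (1.90 ± 0.18, adjusted p = 4.84e-10), TMED3 (1.42 ± 0.23, adjusted p = 4.76e-06), SEC16B (1.02 ± 0.16, adjusted p = 2.7e-06), SEC62 (0.94 ± 0.06, adjusted p = 7.62e-13), TRAPPC12 (0.81 ± 0.05, adjusted p = 1.61e-13), SEC22C (0.79 ± 0.10, adjusted p = 1.8e-07) and MIA3 (0.54 ± 0.11, adjusted p = 0.000148) were also higher with TGF-β1, and MIA3 alone of these lost its call with total-count scaling (0.13, adjusted p = 0.284). TMED5 (-1.67 ± 0.08, adjusted p = 7.5e-16), TMED6 (-1.55 ± 0.21, adjusted p = 2.94e-07), SRP19 (-0.77 ± 0.11, adjusted p = 8.11e-07), SSR1 (-0.75 ± 0.10, adjusted p = 8.47e-08) and SRP9 (-0.68 ± 0.07, adjusted p = 6.14e-09) were lower with TGF-β1. By role, the COPI genes split into 4 higher and 1 lower (1 and 4 with total-count scaling), the COPII genes into 6 and 3 (1 and 6), the translocon genes into 5 and 3 (1 and 6), the TRAPP genes into 4 and 1 (1 and 4), the SRP genes into 0 and 4 (0 and 5) and the TMED genes into 1 and 5 (1 and 8).

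Replicate numbers fitted as a block added 3 calls between TGF-β1 and FBS. They were ARCN1 (lower, adjusted p = 0.0265), SSR2 (higher, 0.0153) and TRAPPC3 (higher, 0.0292).

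Gene length moved with these changes. Across all genes tested, Spearman's rho between the listed gene length and the log2 fold change was -0.085 for TGF-β1 and -0.162 for FBS against serum-free medium, and across the 63 secretory genes it was -0.403 and -0.383. For TGF-β1 against FBS it was 0.146 across all genes and 0.328 across the secretory genes. These are correlations across genes, which share libraries and are no independent replicates. The median log2 fold change with FBS was 0.34 in the shortest 25% of all genes and -0.35 in the longest 25%. The secretory genes that rose with FBS had a median length of 1777 bases and those that fell 3752.5 bases, beside 2301 and 2973 bases for all genes. SRP and SEC11 genes are short and COPII genes are long in this table, with median lengths of 1519, 1027.5 and 3935 bases. With offsets that take out the trend over 20 bins of gene length, a setting chosen after seeing the data, 23 genes rose and 26 fell with FBS and 27 rose and 10 fell with TGF-β1. Between TGF-β1 and FBS the offsets gave 29 genes higher and 15 lower with TGF-β1. There the COPII genes stayed at 6 higher and 3 lower and the COPI genes at 4 and 1. The SRP genes went to 1 and 4 and the TMED genes to 2 and 4. With those offsets 4 of 5 SRP genes and 6 of 9 TMED genes still rose with FBS, 6 COPII and 4 COPI genes fell, and SEC11C (-0.10), SRP14 (-0.04), SSR2 (0.07, adjusted p = 0.374) and TRAPPC4 (0.07, adjusted p = 0.585) were no longer called higher. SEC24A (-0.09, adjusted p = 0.249) and TRAPPC13 (-0.08, adjusted p = 0.306) were no longer called lower with FBS, and SSR4 (-0.73, adjusted p = 2.27e-09), TRAPPC1 (-0.48), TRAPPC2 (-0.68) and TMED1 (-0.27) were newly called lower and TRAPPC8 (0.32) higher. With TGF-β1 SSR4 lost its call under these offsets (0.15, adjusted p = 0.0979). The COPII genes with TGF-β1 went from 1 higher and 3 lower to 4 higher and 3 lower. COPZ1 was then called higher (0.14, adjusted p = 0.0448) and MIA3 lower (-0.14, 0.0309) with TGF-β1. The part of RNA quality or fragment length in this trend was not tested.

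The library numbers in the column names run from 5 to 12, and numbers 5 to 8 separate from 9 to 12 on the third principal component in every condition. All 29 genes called with TGF-β1, all 50 called with FBS and all 41 called between TGF-β1 and FBS had the same sign in both sets. The size differed between the sets (set-by-condition term) for 7 of 63 genes with TGF-β1, 18 with FBS and 10 between TGF-β1 and FBS, beside 10.3%, 22.4% and 23.9% of all genes. For COPZ2 the FBS change was -2.44 in numbers 5 to 8 and -1.27 in numbers 9 to 12 (adjusted p of the term = 1.41e-05). SAR1A changed by -0.93 and -0.39 (4.1e-05), COPG1 by -0.64 and -0.06 (1.63e-05), and SEC16B by -2.39 and -1.32 (0.00053). The term was also called with FBS for CREB3L1 and CREB3L2. By role, it was called with FBS for 5 of 7 COPI and 4 of 12 COPII genes, beside the 22.4% of all genes. SRP14 between TGF-β1 and FBS turned its sign, at 0.41 and -0.42 (0.00234). Besides SEC23A, numbers 9 to 12 alone did not give the calls of SRP14 (adjusted p = 0.287), TRAPPC12 (0.192), SEC11C (0.0784) and TRAPPC6B (0.0769) with TGF-β1, or of COPG1 (0.404), SEC24C (0.119), TRAPPC10 (0.0875), TRAPPC13 (0.0673) and COPA (0.0516) with FBS. Numbers 5 to 8 alone did not give those of TRAPPC3L (0.121), SSR4 (0.103) and TRAPPC6B (0.0687) with TGF-β1, or of SEC11C (0.107), SRP14 (0.0947) and TRAPPC3L (0.0793) with FBS.

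Other genes of the route, listed by role with earlier results of these data known, numbered 74 in the table, of which 73 were tested. Genes named from these lists were picked among the called ones with the largest changes. With TGF-β1, 29 rose and 12 fell, beside 31.2% and 33.1% of all genes, and with FBS 33 rose and 22 fell, beside 39.5% and 40.5%. Total-count scaling gave 20 higher and 19 lower with TGF-β1, and 43 and 16 with FBS. The oligosaccharyltransferase, which adds N-glycans beside the translocon, had 7 of 12 subunits higher and none lower in each condition (5 and 1 with TGF-β1 and 11 and 0 with FBS under total-count scaling, and 6 and 3 with FBS under the length offsets). DDOST rose by 0.82 ± 0.08 with TGF-β1 and 0.81 ± 0.08 with FBS, while RPN2 rose with TGF-β1 (0.93 ± 0.07, adjusted p = 9.72e-12) and gave 0.06 ± 0.07, adjusted p = 0.392 with FBS. TUSC3 rose with FBS (1.15 ± 0.12, adjusted p = 3.97e-09) and gave -0.16 ± 0.13, adjusted p = 0.263 with TGF-β1. Of the SRP receptor and the non-catalytic signal peptidase subunits, 2 of 5 rose with TGF-β1 and 4 rose and 1 fell with FBS. SPCS1 (0.79 ± 0.08) and SPCS3 (0.68 ± 0.08) rose with FBS beside SEC11A, and SRPRA, the receptor subunit that docks SRP, fell (-0.33 ± 0.05, adjusted p = 4.65e-06), a call lost with total-count scaling (-0.07, adjusted p = 0.213).

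Among 15 tested cargo receptors outside the TMED family, 6 rose and 2 fell with TGF-β1, beside 31.2% and 33.1% of all genes. With FBS 8 rose and 2 fell, beside 39.5% and 40.5%, and no difference from these shares was tested. Total-count scaling gave 4 higher and 2 lower with TGF-β1, and 9 and 2 with FBS. The length offsets gave 6 and 2 with TGF-β1, and 8 and 6 with FBS. LMAN1, a lectin that carries glycoproteins out of the ER, had 178 to 226 CPM (median 197) with TGF-β1 and 114 to 142 CPM (median 141) with FBS, against 85.1 to 142 CPM (median 109.8) in serum-free medium (0.85 ± 0.10, adjusted p = 2.3e-08 and 0.28 ± 0.10, adjusted p = 0.00895). MCFD2, its partner, rose more with FBS (1.04 ± 0.09) than with TGF-β1 (0.36 ± 0.09; TGF-β1 against FBS -0.68 ± 0.09, adjusted p = 7.28e-08). KDELR3, a receptor that returns ER proteins, fell with FBS (-1.07 ± 0.11, adjusted p = 2.96e-09) and gave 0.05 ± 0.11, adjusted p = 0.741 with TGF-β1. CNIH4 rose with FBS (1.21 ± 0.13) and BCAP31 fell with FBS (-0.71 ± 0.11) and rose with TGF-β1 (0.50 ± 0.11).

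Of 9 COPII assembly helpers, 4 rose and 2 fell with TGF-β1 and 5 rose and 3 fell with FBS. For these and the next 2 lists, all genes gave 31.2% higher and 33.1% lower with TGF-β1 and 39.5% and 40.5% with FBS. No difference from these shares was tested. PDCD6, a calcium sensor at exit sites, rose in both (1.02 ± 0.07 with TGF-β1 and 0.77 ± 0.07 with FBS), and TFG, which organises exit sites, did likewise (0.42 ± 0.08 and 0.33 ± 0.08). Of 10 ARF GTPases and regulators of COPI, 3 rose and 3 fell with TGF-β1 and 1 rose and 4 fell with FBS. Total-count scaling gave the 10 ARF genes and regulators 1 higher and 4 lower with TGF-β1 and 4 higher and 2 lower with FBS. It gave the 9 assembly helpers 2 and 3 with TGF-β1 and 6 and 2 with FBS. ARF1, the GTPase that recruits COPI, rose in both (0.25 ± 0.07 and 0.52 ± 0.07; 0.11, adjusted p = 0.144 with TGF-β1 under total-count scaling), and GBF1, its exchange factor, fell in both (-0.58 ± 0.10 and -0.79 ± 0.10). Of 16 tethers and fusion factors at the cis-Golgi, 6 rose and 3 fell with TGF-β1 and 7 rose and 7 fell with FBS. For these 16, total-count scaling gave 5 higher and 4 lower with TGF-β1, and 8 and 6 with FBS. The length offsets gave them 8 and 3 with TGF-β1, and 6 and 6 with FBS. RAB1A, the GTPase whose exchange factor is TRAPP, had 354 to 448 CPM (median 384) with TGF-β1 and 524 to 601 CPM (median 563) with FBS, against 185 to 228 CPM (median 202) in serum-free medium, with separate ranges (0.93 ± 0.07, adjusted p = 2.68e-12 and 1.47 ± 0.07, adjusted p = 6.92e-17). The long coiled-coil tether GOLGB1 fell in both (-0.56 ± 0.09 and -1.85 ± 0.09), as did the matrix protein GOLGA2 (-0.58 ± 0.09 and -1.43 ± 0.09).

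The other ER stress factors and the proteases that cut them gave 1 higher and 2 lower of 6 with TGF-β1, beside 31.2% and 33.1% of all genes. With FBS they gave 1 higher and 5 lower of 6, beside 39.5% and 40.5%. XBP1, a factor of the unfolded protein response, had 199 to 273 CPM (median 211) with TGF-β1 and 102 to 155 CPM (median 128) with FBS, against 235 to 456 CPM (median 310.5) in serum-free medium (-0.54 ± 0.12, adjusted p = 0.000368 and -1.33 ± 0.12, adjusted p = 1.99e-10). ATF6 rose in both (1.12 ± 0.10 and 0.77 ± 0.10), and CREB3, a relative of the CREB3L factors, fell with FBS (-1.09 ± 0.12, adjusted p = 1.03e-08) and gave 0.11 ± 0.12, adjusted p = 0.432 with TGF-β1. HSPA5, the main ER chaperone, rose in both, at 0.47 ± 0.07, adjusted p = 8.38e-07 with TGF-β1 and 0.74 ± 0.07, adjusted p = 9.23e-11 with FBS. All 6 factors and proteases were higher with TGF-β1 than with FBS, beside 36.9% of all genes. With total-count scaling 3 of 6 were higher, and ATF6 was at -0.05 (adjusted p = 0.665).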

How the data were processed

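Bulk RNA of 24 libraries was measured, 8 per condition. The deposited count table holds whole-number reads per gene, per the file headers and values, and the authors' FPKM table holds those counts per gene length and scaled library size. The aligner, counting program, strand setting, build and annotation were not given in the sources used here, so reads shared by near-identical copies may be uncertain. The tables held 0 sample columns outside the series. Counts were tested in R 4.3.3 with edgeR 4.0.16 (filterByExpr, TMM, quasi-likelihood F-test, Benjamini-Hochberg over 13308 genes, adjusted p under 0.05), all 24 libraries in 1 fit. Scripts were tested on simulated data, and the recovery required there of the smallest fold size was lowered after a first run missed it. FPKM compared levels between genes, and alternatively limma 3.58.1 with pseudocounts of 0.1 and 1. Other alternatives were DESeq2 1.42.0, no filter, total-count scaling, pairwise fits, replicate block, set covariate, each set alone, libraries left out, and, added after seeing the data, offsets over 20 length bins. Same-numbered libraries deviated together, with correlations of 0.177 to 0.362 for TGF-β1 against serum-free and 0.115 to 0.429 for FBS against serum-free. For TGF-β1 against FBS they were 0.103 to 0.332. No correlations of differently numbered libraries are given, so pairing was not told apart from a shift shared by a set of library numbers. The main fit did not pair libraries, and same-numbered libraries were paired, from the titles, only in the fits with a replicate block. No 2 libraries of a condition agreed within sampling noise (chi-square per gene of at least 2.80). Members, lists and naming rule (largest called changes per role, highest FPKM, paralogues, CREB3L genes) were chosen with earlier results of these data known.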

Additional observations from a re-analysis of the deposited data

Results flagged for a closer look

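In 9 of 195 checks of 1 gene in 1 condition, a single library lay far from the other 7, and chance alone flags about 1 in 20. In 6 of the 9 it was TGF-β1 replicate 2. That library was high for SEC23B (63.4 CPM, others 53.5 to 57.4), TRAPPC13 (92.0 CPM, others 66.7 to 78.5), TMED7 (287 CPM, others 199 to 235) and SSR1 (280.5 CPM, others 216 to 230). It was low for SEC31B (16.6 CPM, others 21.0 to 24.3) and SEC61B (56.0 CPM, others 78.2 to 94.2). FBS replicate 5 was low for COPB2 (249 CPM, others 262 to 271) and high for SSR3 (384 CPM, others 306 to 340). Serum-free replicate 7 was high for TMED8 (7.31 CPM, others 2.73 to 4.89).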

How the results depend on the processing

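Without TGF-β1 replicate 2, SEC61B was called higher with TGF-β1 (adjusted p = 0.0354) and SEC61A2 lower (0.0359 to 0.0481 without TGF-β1 replicate 2 or 3). Leaving out 1 library at a time gave 20 to 24 secretory genes higher and 8 to 12 lower with TGF-β1 against serum-free medium, 25 to 26 higher and 24 to 24 lower with FBS, and 22 to 24 higher and 18 to 18 lower between TGF-β1 and FBS. Besides the calls named above, SEC63 between TGF-β1 and FBS lost its call without serum-free replicate 5, TGF-β1 replicate 2, 3, 6, 7 or 8, or FBS replicate 5 or 6 (0.0514 to 0.099). Calls gained with TGF-β1 against serum-free medium were COPB2 (without serum-free replicate 2), COPG1 and SEC24D (serum-free 5 or 6), SEC23B (serum-free 1), SEC61A1 (TGF-β1 4), MIA3 (serum-free 5, FBS 5 or 6), SEC23IP (serum-free 1 or 2, TGF-β1 4, FBS 5), SEC24C (serum-free 3, 5 or 8, TGF-β1 6 or 7, FBS 5) and TMED6 (serum-free 1, 5 or 6, TGF-β1 2 or 8, FBS 3, 4, 7 or 8). Without FBS replicate 5, TRAPPC1 and TRAPPC3 were called higher with TGF-β1 than with FBS.

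Scaling by total count alone gave 18 genes lower with TGF-β1 against serum-free medium, and 7 higher and 36 lower between TGF-β1 and FBS. Library numbers 5 to 8 alone gave 17 lower with TGF-β1 against serum-free medium. The cause was not tested. The replicate block gave 26 higher and 12 lower with TGF-β1, 27 higher and 24 lower with FBS, and 25 higher and 19 lower between TGF-β1 and FBS, adding the 13 calls named above and changing no other call. DESeq2 and limma on FPKM with either pseudocount each changed at most 1 of 189 calls, no filter changed 3, and none of these turned a sign.

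Total-count scaling turned the sign of TRAPPC12 with TGF-β1 against serum-free medium (-0.01) and of SEC63 with FBS (0.20). Between TGF-β1 and FBS it turned COPA (-0.07), COPB1 (-0.11), COPB2 (-0.38), COPG1 (-0.19), SAR1B (-0.39), SEC13 (-0.39), SEC31B (-0.04), TRAPPC9 (-0.20), TRAPPC10 (-0.38), TRAPPC11 (-0.29), TRAPPC13 (-0.05), TMED10 (-0.31), SEC63 (-0.21) and SSR3 (-0.16). Library numbers 5 to 8 alone turned TRAPPC2 (0.48) and SRP14 (0.41) between TGF-β1 and FBS, and SRP14 also turned without both FBS replicates 5 and 6 (0.21). Length-binned offsets turned TRAPPC2 (0.33) and SRP14 (0.27) in that comparison and TMED1 (-0.27), SEC11C (-0.10) and SRP14 (-0.04) with FBS against serum-free medium. The same offsets with the replicate block turned TRAPPC2 (0.34) and SRP14 (0.25) between TGF-β1 and FBS, and TRAPPC11 (0.14), TRAPPC5 (-0.20), TMED1 (-0.29), SEC11C (-0.11) and SRP14 (-0.03) with FBS. CREB3L4 and TRAPPC6A were too low to test.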

Other observations

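Some close relatives stand in the table under gene numbers and were outside the choice by name. They were looked for after the data were seen, so no test of them as a group is given. SEC24B and SEC22B were matched through RefSeq numbers of assembly mOryCun1.1. SEC22B, the SNARE of COPII vesicles, changed by -0.18 ± 0.11, adjusted p = 0.128 with TGF-β1 and -0.50 ± 0.11, adjusted p = 0.000109 with FBS, and SEC24B by 0.03 ± 0.13, adjusted p = 0.834 and 0.17 ± 0.13, adjusted p = 0.224. COPG2, the alternative γ subunit of COPI, fell in both (-0.54 ± 0.13, adjusted p = 0.000621 and -0.45 ± 0.13, adjusted p = 0.00227). TRAPPC14 rose with FBS (0.44 ± 0.13, adjusted p = 0.00352) and gave -0.05 ± 0.13, adjusted p = 0.776 with TGF-β1. CTAGE5, described in the table as MIA2, the partner of MIA3 at exit sites, rose with TGF-β1 (0.25 ± 0.11, adjusted p = 0.0402) and with FBS (0.65 ± 0.11, adjusted p = 3.6e-06), where MIA3 fell. A row described as SEC16A fell with FBS (-0.40 ± 0.10, adjusted p = 0.00107) and gave -0.19 ± 0.10, adjusted p = 0.121 with TGF-β1. Total-count scaling ended the calls of CTAGE5 with TGF-β1 (0.11, adjusted p = 0.332) and of COPG2 (-0.18, 0.165) and the SEC16A row (-0.15, 0.225) with FBS. COPE and CREB3L3 were looked for by description and not found, so neither was analysed. Rows described as SRP54, TMED9, TMED11 or TRAPPC2L were found, and their values are not given here. The SRP and TMED counts above therefore cover only the genes chosen by name.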
